A study of Rattus norvegicus with 18 samples.

Results

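Molecular chaperones were followed across the hippocampus arrays by gene name. Taken were all genes whose probe sets carry a single symbol starting with Hsp and a letter or digit, with Dnaj, or with Cct and a digit, leaving out the matrix proteoglycan Hspg2. The rule found 60 of the 10412 genes named on the array, measured by 77 probe sets. A gene with several probe sets (16 of the 60) was represented by the one with the highest mean. Of the 60, 46 passed the filter on low signal and were tested, and 14 did not. The tested genes comprised 2 of the HSP90 family, 3 of the HSP70 family, 2 HSP70-like proteins, 2 of the HSP110 family, 1 HSP70-binding protein, 4 small heat shock proteins, 7 subunits of the chaperonin TRiC, both mitochondrial chaperonins and 23 DnaJ proteins (4 of class A, 6 of class B and 13 of class C). Most act in the cytosol (26) or the endoplasmic reticulum (8), but 5 are mitochondrial, 3 sit on vesicles or endosomes and 1 in the nucleus, so the set is wider than cytosol and endoplasmic reticulum. Hspa8 and Hsp90aa1, the constitutive cytosolic HSP70 and the inducible cytosolic HSP90, were on probe sets that carry more than 1 symbol and were not analysed here.

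Total RNA from rat hippocampus was hybridised to 18 Affymetrix arrays, 1 per sample, in a series on learning after exposure to alcohol before birth. The labels give an alcohol diet (4 naive and 4 trained samples), an isocaloric diet (2 naive and 4 trained) and a control diet (2 naive and 2 trained). Training is abbreviated CFC in the labels and not spelled out. Strain, age, litter, the dose of alcohol and the time from training to dissection are not given in the sources used here. Nothing says that replicates came from separate animals, so p-values here measure spread among samples that may be technical.

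Chaperones bind unfolded stretches of other proteins and keep them from clumping until they fold. HSP70 proteins do so in cycles of ATP hydrolysis that DnaJ proteins start and that HSP110 proteins reset by releasing ADP. HSP90 completes clients such as kinases and steroid receptors, TRiC encloses actin and tubulin in a barrel of CCT subunits, and Hspa5 with Hsp90b1 serves the secretory pathway. In neurons, Dnajc5 (cysteine string protein) protects synaptic vesicle proteins and Dnajc6 (auxilin) helps Hspa8 strip clathrin from endocytosed vesicles. Transcription of many of these genes is raised by heat shock factor 1 when cytosolic proteins misfold, and of others by ATF6 and XBP1 when the endoplasmic reticulum is loaded.

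Promoter stretches are shown for members whose windows hold a stress element, since Dnaja1 is among the genes that differed by diet and Hspa5 and Hsp90b1 are not. RefSeq windows of 300 bases (250 before to 50 after the gene start, assembly GRCr8) were found for 50 of the 60 genes. A strict heat shock element, GAA, TTC and GAA each 2 bases apart on either strand, was present in 5 of the 50 (10%), Cct4, Dnaja1, Hspd1, Hspe1 and Hsph1, against 202 of 27457 windows of all genes (0.736%). An ER stress element, CCAAT and CCACG held 9 bases apart on either strand, was present in 3 (6%), Dnajc3, Hsp90b1 and Hspa5, against 21 of 27457 (0.0765%). No member had both. The 2 mitochondrial chaperonins Hspd1 and Hspe1 start back to back, and their windows hold the same site. The stretches below carry the triplets of the heat shock element in capitals (Dnaja1, Hspe1, Hsph1) or the outer blocks of the ER stress element (Hspa5, Hsp90b1). A match describes letters in the window, not binding.
Dnaja1, chr5:60638410-60638431, plus strand: gcgGAActTTCcaGAAcgctcg
Hspe1, chr9:64084259-64084282, plus strand: cggTTCtaGAAccTTCcgGAAggc
Hsph1, chr12:10427308-10427367, plus strand: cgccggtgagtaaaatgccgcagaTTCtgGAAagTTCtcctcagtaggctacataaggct
Hspa5, chr3:38452936-38453015, plus strand: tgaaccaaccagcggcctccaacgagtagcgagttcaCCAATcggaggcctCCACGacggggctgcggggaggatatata
Hsp90b1, chr7:23012334-23012483, minus strand: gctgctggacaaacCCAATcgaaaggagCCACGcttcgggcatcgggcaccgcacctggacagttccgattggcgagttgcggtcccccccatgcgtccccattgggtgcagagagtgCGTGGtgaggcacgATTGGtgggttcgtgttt

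The Hsp90b1 stretch holds the ER stress element at 2 places, 176 and 72 bases before the start, in opposite orientation, and that of Hspa5 lies 43 bases before it. In Hsph1 the heat shock element lies 36 bases before the start, and in Dnaja1 just after it.

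Levels are given as log2(signal + 6.06), where 6.06 is the 10th percentile of all signals, and differences are on that scale, which understates changes of dim probe sets. Total signal was 2.92e6 to 3.13e6 per array, and arrays of a group correlated at 0.952 to 0.985. All 5 measured markers of hippocampal pyramidal and granule cells, Prox1, Neurod1, Wfs1, Hpca and Calb1, were present, with a summed signal of 3254 to 5292. On 6 arrays, Ttr of the choroid plexus stood more than 1 log2 unit above its median (alcohol trained replicates 3 and 4, isocaloric trained 2 and 3, alcohol naive 2, control trained 1). The summed signal of 8 choroid plexus markers spanned 781 to 10683 in the alcohol, 786 to 9436 in the isocaloric and 852 to 9686 in the control diet. Of the 4 control arrays, 2 (naive replicate 1 and trained replicate 2) were written with at most 6 digits per value throughout, against at most 3.67% of values on the others. In bulk tissue, fewer cells of a type and less RNA per cell cannot be told apart.

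Within a group the chaperone genes varied about as much as all probe sets tested. The SD within groups had a median of 0.14 over the 46 genes, against 0.16 over the 9520 probe sets tested, not matched for level. It was lowest for Hspd1, the mitochondrial HSP60, at 0.044 and highest for Hspb1, the small heat shock protein HSP27, at 0.43. The 14 genes left out of the tests had mean levels of 2.99 to 5.67, among them the testis-enriched Hspa1l and Hspa2 and the muscle-associated Hspb2 and Hspb3. With no filter, 0 of these 14 passed in any of the 10 comparisons.

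Alcohol was first compared with the isocaloric diet, which shares its calories without alcohol. The cytosolic HSP90 gene Hsp90ab1 and the ER co-chaperone gene Dnajb11 (ERdj3, a secreted partner of Hspa5) were higher in the alcohol diet, and 0 genes were lower. In limma over all probe sets, 1.47% were called higher and 1.59% lower at an adjusted p under 0.05. The higher calls (2 of 46, 4.35%) were above the share of the array but rest on 2 genes, and the lower calls (0 of 46) were below it. Whether the genes differ from the array was not tested. The median difference of the 46 genes was 0.0044, against -0.018 over all tested.

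Hsp90ab1 had levels of 11.74, 11.71, 11.58 and 11.25 in alcohol naive and 11.56, 11.84, 11.64 and 11.65 in alcohol trained arrays. Its isocaloric levels were 11.20 and 11.15 (naive) and 11.27, 11.39, 11.44 and 11.42 (trained). Apart from the alcohol naive array at 11.25, the alcohol arrays lay above all isocaloric ones. The difference was 0.34 (SE 0.075, 1.27-fold, limma adjusted p = 0.0218), with 8 of 8 alcohol arrays above the isocaloric mean of their own training state. Control levels were 11.69 and 11.55 (naive) and 11.31 and 11.20 (trained), which overlapped both other diets. A dimmer second probe set of Hsp90ab1 differed by 0.20 (adjusted p = 0.100). Without isocaloric naive replicate 1 or 2 the adjusted p of the brighter probe set was 0.11 and 0.13, and with the 3' to 5' ratio of Gapdh as a covariate it was 0.18.

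Dnajb11 had levels of 7.28, 6.99, 7.19 and 7.05 in alcohol naive and 7.16, 7.07, 7.15 and 6.98 in alcohol trained arrays. In the isocaloric diet it was at 7.09 and 6.62 (naive) and at 6.69, 6.75, 6.55 and 6.84 (trained). The groups overlapped through the isocaloric naive array at 7.09. Control levels were 6.90 and 6.80 (naive) and 6.93 and 6.93 (trained). They lay below all alcohol arrays and inside the isocaloric range, and neither comparison with the control diet was called. Alcohol minus isocaloric was 0.33 (SE 0.085, 1.26-fold, limma adjusted p = 0.041). Without isocaloric naive replicate 2 it was 0.21 (adjusted p = 0.277). It also missed the threshold, at 0.0528 to 0.0795, without any 1 of alcohol trained replicates 1 to 3, isocaloric trained replicates 1 to 3 or alcohol naive replicates 1 and 3.

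For Gapdh, the log2 of the 3' over the 5' signal, a measure of RNA integrity, moved with these diets. It was 0.258 ± 0.121 (SD, n = 8) in the alcohol and 0.133 ± 0.0401 (n = 6) in the isocaloric diet (exact permutation test, two-sided, p = 0.0283, 0.0637 after adjustment over 9 tests). Of the 5 markers of hippocampal pyramidal and granule cells, 1 was higher in alcohol, Hpca (0.53, limma adjusted p = 0.0176). Their summed signal was 3999 to 5292 in alcohol and 3254 to 4499 in isocaloric arrays, and none was at 0. Their part in the 2 calls was not tested. Without the 6 arrays high in Ttr, 0 chaperone genes and 0.0315% of all probe sets were called, with differences of 0.35 for Hsp90ab1 and 0.34 for Dnajb11. Without the 4 highest these were 0 genes, 0.462%, 0.33 and 0.34.

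**Figure D1:**
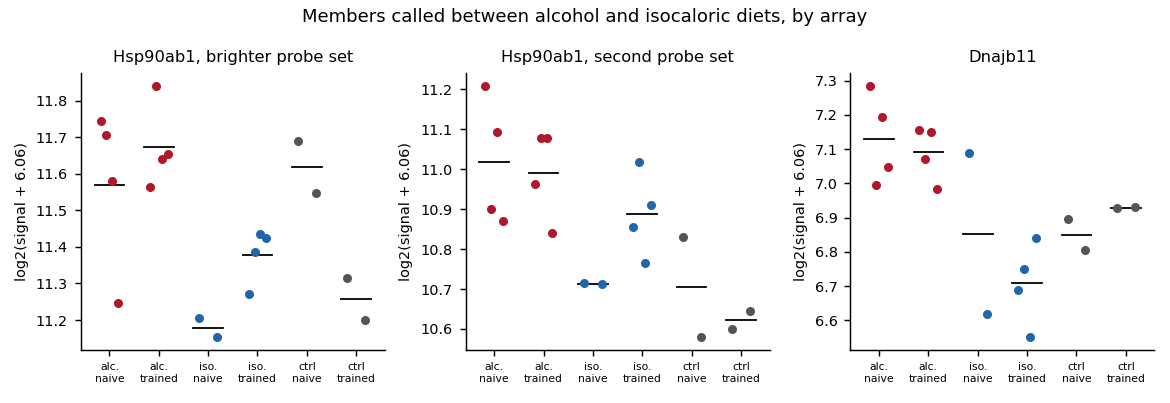
Levels of Hsp90ab1 (both probe sets) and Dnajb11 as log2(signal + 6.06), 1 point per array and a line at each group mean, over the 6 diet by training groups. In the brighter Hsp90ab1 probe set and in Dnajb11, alcohol arrays lie above isocaloric ones apart from 1 alcohol naive array at 11.25 and 1 isocaloric naive array at 7.09. In the second Hsp90ab1 probe set, alcohol and isocaloric arrays overlap, and all control arrays lie below all alcohol arrays.

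Other genes of the alcohol and isocaloric comparison stayed short of the threshold. Hspd1 differed by 0.14 (adjusted p = 0.0823), with alcohol levels of 10.12 to 10.31 and isocaloric levels of 9.99 to 10.15. Dnajb9, an ER DnaJ protein induced by the unfolded protein response, differed by -0.24 (adjusted p = 0.111). Hspb7 and Hspb8, small heat shock proteins better known from muscle, differed by -0.34 and -0.24 (adjusted p = 0.194 and 0.239). A second probe set of Hspb8 went the other way without passing, with overlapping levels of 5.74 to 6.57 in alcohol and 5.58 to 6.42 in isocaloric arrays. TRiC subunits went both ways, from -0.23 for Cct6a to 0.17 for Cct5. The ER pair Hspa5 and Hsp90b1 differed by 0.0078 and 0.093. For Hspa5 the 95% interval ran from -0.20 to 0.21.

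The alcohol diet was next set against the control diet, where 9 of the 46 genes were called, 8 lower and 1 higher in alcohol. The falls took in the class A DnaJ proteins Dnaja1 and Dnaja2, which feed clients to HSP70, the TRiC subunits Cct3 and Cct8, the HSP110 protein Hspa4, the ER co-chaperone Dnajb9, auxilin (Dnajc6) and the nuclear, spliceosome-associated Dnajc8. Dnajb2, a neuronal DnaJ protein that links HSP70 to the proteasome, was higher. Over all probe sets, 11.3% were higher and 8.61% lower, so the lower calls (8 of 46) were above the share of the array and the higher calls (1 of 46) below it. No difference between the genes and the array was tested. The median of the 46 genes was -0.024, against -0.00080 over all tested.

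Dnaja1 had control levels of 9.81 and 10.13 (naive) and 9.94 and 10.01 (trained). Its levels were 9.50, 9.64, 9.57 and 9.59 in alcohol naive and 9.45, 9.58, 9.47 and 9.39 in alcohol trained arrays. All 4 control arrays lay above all 8 alcohol arrays. The difference was -0.45 (SE 0.063, 1.37-fold lower, limma adjusted p = 0.000247). This call was kept in 26 of 26 alternatives, with an adjusted p of at most 0.0308. A second probe set of Dnaja1 differed by -0.11 (adjusted p = 0.287). Its control levels were 9.58, 9.79, 9.38 and 9.44, of which the last 2 lay inside the alcohol range of 9.36 to 9.51.

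The close relative Dnaja2 was at 9.72 and 10.07 (naive) and 9.71 and 9.83 (trained) in the control diet and at 9.53 to 9.61 in alcohol (median 9.57). The groups did not overlap, and the difference was -0.26 (SE 0.059, adjusted p = 0.00611). Dnajc8 was at 8.68, 8.85, 8.55 and 8.64 in control arrays and at 8.19 to 8.54 in alcohol arrays (median 8.42). Again no array of one diet fell in the range of the other, and Dnajc8 differed by -0.28 (SE 0.071, adjusted p = 0.0106).

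Auxilin, Dnajc6, had control levels of 9.87, 9.97, 9.96 and 10.01 and alcohol levels of 9.36 to 9.86 (median 9.71). The ranges met without overlapping, at a difference of -0.30 (SE 0.068, adjusted p = 0.00615). Its second probe set differed by -0.065 (adjusted p = 0.563). Dnajb9 had control levels of 7.63, 7.97, 7.83 and 8.10 and alcohol levels of 7.25 to 7.80 (median 7.43). These overlapped, at a difference of -0.40 (SE 0.092, adjusted p = 0.00707).

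Of the 7 TRiC subunits tested, 2 fell, 0 rose and 5 did not pass, with a median of -0.13. Cct3 was at 9.08, 9.57, 9.17 and 9.06 in control and at 8.27 to 8.99 in alcohol arrays (median 8.90). The diets were separate, and the difference was -0.41 (SE 0.11, adjusted p = 0.0143). Cct8 was at 7.28, 7.97, 7.40 and 7.64 in control and at 6.82 to 7.33 in alcohol arrays (median 7.25). Its ranges overlapped through control naive replicate 1 at 7.28, and the difference was -0.38 (SE 0.11, adjusted p = 0.0211). Alcohol trained replicate 4 was the lowest array of both genes, at 8.27 and 6.82. The subunit Cct7 went the other way, at 0.17 (adjusted p = 0.0509), just short of the threshold. Cct2, Cct4, Cct5 and Cct6a differed by -0.032, -0.11, -0.13 and -0.24 without passing.

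Hspa4, a nucleotide exchange factor for HSP70, was at 8.73 and 8.80 in control naive arrays and at 8.62 and 8.25 in control trained arrays. Alcohol levels were 7.93 to 8.53 (median 8.15), which overlapped the control array at 8.25. The difference was -0.41 (SE 0.11, adjusted p = 0.0131). Its relative Hsph1 differed by 0.0089, with a 95% interval of -0.13 to 0.15. Dnajb2 was at 8.23, 8.14, 8.19 and 8.14 in control and at 8.29 to 8.58 in alcohol arrays (median 8.37). It did not overlap and differed by 0.24 (SE 0.067, adjusted p = 0.0178).

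Single control arrays weighed on these calls. The counts without 1 array are given without the share of all probe sets, so they do not describe the chaperone genes alone. Without control naive replicate 2, 3 genes were called, Dnaja1 (-0.37), Dnajc6 (-0.27) and Dnaja2 (-0.17), and without control naive replicate 1 there were 15. The fall of Cct8 was then 0.21 on the log2 scale (adjusted p = 0.214) without control naive replicate 2, and that of Cct3 was 0.29 (adjusted p = 0.14). Without control trained replicate 1, Cct3, Dnajb2 and Hspa4 missed the threshold (adjusted p = 0.0674, 0.0531 and 0.0981). Without control trained replicate 2, Cct8, Dnajb2, Dnajb9 and Dnajc8 did (adjusted p = 0.107, 0.0705, 0.0522 and 0.0530). Without both arrays of 6-digit values the count was 15 and the share of all probe sets called in either direction 25.9%, against 19.9% with all arrays. Without the 6 arrays high in Ttr they were 2 genes and 2.35%, so the counts moved with the whole array.

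**Figure D2:**
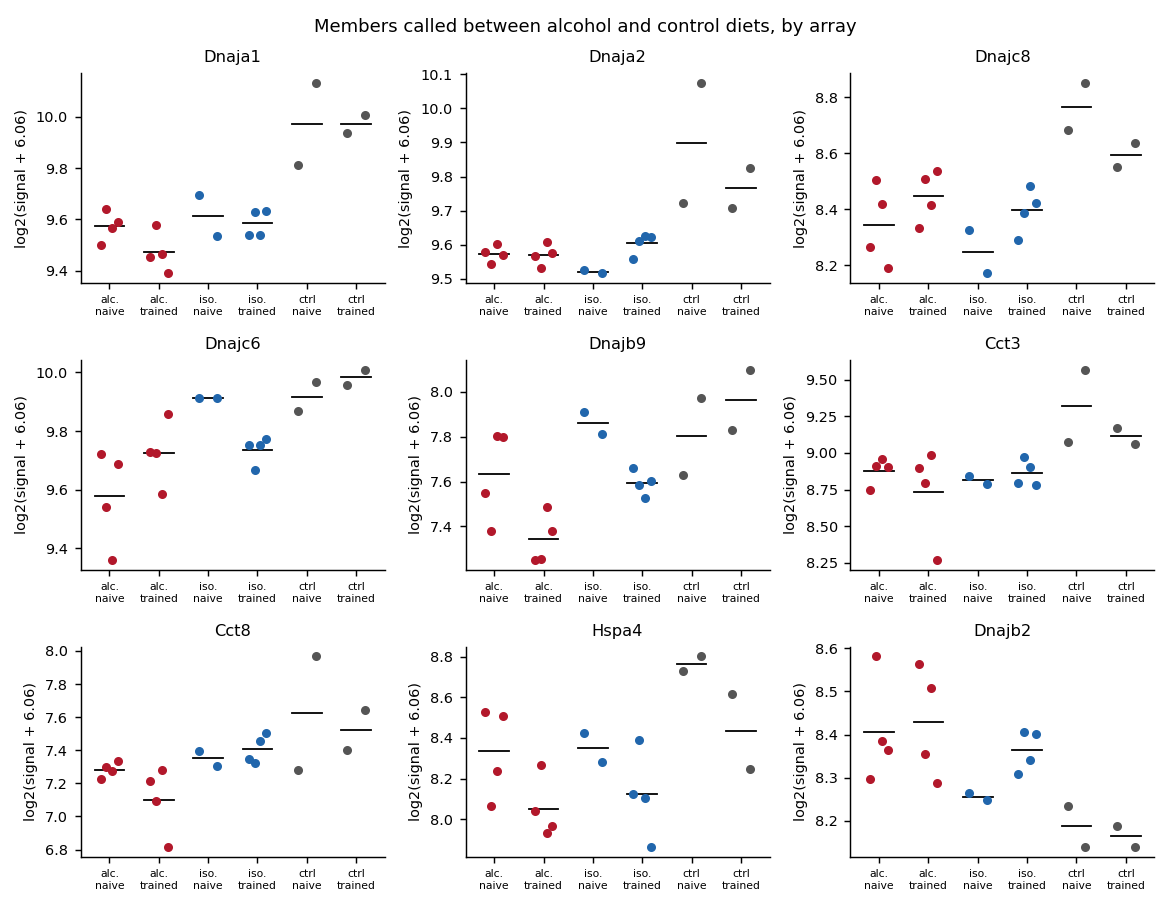
Levels of the 9 genes called between alcohol and control diets as log2(signal + 6.06), 1 point per array and a line at each group mean, with a separate vertical scale per gene. Control arrays lie above alcohol arrays for Dnaja1, Dnaja2, Dnajc8, Dnajc6 and Cct3 without overlap and below them for Dnajb2, and control naive replicate 2 is the highest array for Dnaja1 (10.13), Dnaja2 (10.07), Dnajc8 (8.85), Cct3 (9.57), Cct8 (7.97) and Hspa4 (8.80).

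In the isocaloric diet, 5 of the 46 genes were lower than in the control diet and 0 higher, against 2.8% lower and 4.24% higher over all probe sets. They were Dnaja1, Dnaja2, Dnajc8, the TRiC subunit Cct5 and Dnajc15, a DnaJ protein of the inner mitochondrial membrane. The median of the 46 genes was -0.054, against 0.025 over all tested. Both comparisons with the control diet use the same 4 control arrays, so their agreement is not independent.

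Dnaja1 was at 9.69 and 9.54 in isocaloric naive and at 9.54, 9.63, 9.54 and 9.63 in isocaloric trained arrays. All 6 lay below the lowest control array at 9.81, with a difference of -0.37 (SE 0.068, 1.29-fold lower, limma adjusted p = 0.00621). Dnaja2 at 9.52 to 9.63 (median 9.58) and Dnajc8 at 8.17 to 8.48 (median 8.36) were also below every control array. Dnaja2 differed by -0.27 (SE 0.064, adjusted p = 0.0192) and Dnajc8 by -0.36 (SE 0.076, adjusted p = 0.0129).

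Dnajc15 was at 7.62 to 7.80 in isocaloric arrays (median 7.73) and at 7.83, 8.43, 7.87 and 8.0 in control arrays. The diets did not overlap, and the difference was -0.31 (SE 0.092, adjusted p = 0.0467). In the alcohol diet Dnajc15 lay just outside the threshold, at -0.24 (adjusted p = 0.0509). Cct5 was at 9.01 to 9.29 in isocaloric arrays (median 9.09) and at 9.25, 9.74, 9.31 and 9.28 in control arrays. It overlapped, with a difference of -0.30 (SE 0.085, adjusted p = 0.0433). Just outside were Cct3 (-0.38, adjusted p = 0.0562) and Hspa4 (-0.36, adjusted p = 0.0605).

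These 5 calls rested on few arrays. Here too, the share of all probe sets was not set beside the counts without 1 array. Without isocaloric naive replicate 2, 0 genes were called, with 1 of the isocaloric naive arrays then left. Without control naive replicate 2 or control trained replicate 2 it was 1 gene (Dnaja1), without isocaloric naive replicate 1 it was 2, and without control trained replicate 1, isocaloric trained replicate 3 or isocaloric trained replicate 4 it was 3. Without control naive replicate 1 it was 11, and without isocaloric trained replicate 1 Dnajc15 missed the threshold (adjusted p = 0.0703). Without control naive replicate 2, Cct5 differed by -0.17 (adjusted p = 0.295) and Dnajc15 by -0.16 (adjusted p = 0.319). The largest adjusted p of Dnaja1 over 24 alternatives was 0.114, and it was kept in 20 of them.

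Other measures moved with the control diet. Of 6 measured endothelial and mural markers 5 were tested, and all 5 (Cldn5, Esam, Flt1, Rgs5 and Slc2a1) were higher in alcohol (median 0.79) and in isocaloric (median 0.88) than in control. Their summed signal was 795 to 983, 805 to 941 and 502 to 552 in the 3 diets, and none was at 0. Of the 3 measured blood markers, Hbb alone was tested and was lower (-0.56 and -0.50), with summed signals of 563 to 1127, 694 to 1093 and 999 to 1430. Single markers of other lists passed too. In alcohol against control these were Hpca (0.56), the neuronal Slc17a7 (0.39, 1 of 7) and the astrocytic Aqp4 (-0.28, 1 of 7). In isocaloric against control they were the astrocytic Slc1a3 (-0.36, 1 of 7) and the microglial C1qa (-0.52, 1 of 5). The log2 3' to 5' ratio of actin was 0.397 ± 0.161 (SD, n = 8), 0.407 ± 0.0793 (n = 6) and 0.643 ± 0.0943 (n = 4). Against control, the exact permutation test gave adjusted p = 0.0637 for alcohol and 0.0214 for isocaloric (n = 8, 6 and 4). The Gapdh ratio was 0.258, 0.133 and 0.259 in the 3 diets. For it the same test against control gave adjusted p = 0.988 for alcohol and 0.0214 for isocaloric. With the actin ratio as a covariate, 3 genes were called in alcohol against control, Dnaja1 (-0.46), Cct3 (-0.56) and Dnajb9 (-0.48), and 3.31% of all probe sets. In isocaloric against control it was 0 genes and 0.399%, with Dnaja1 at -0.38 (adjusted p = 0.0687). The part of these measures in the differences was not tested further.

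**Figure D3:**
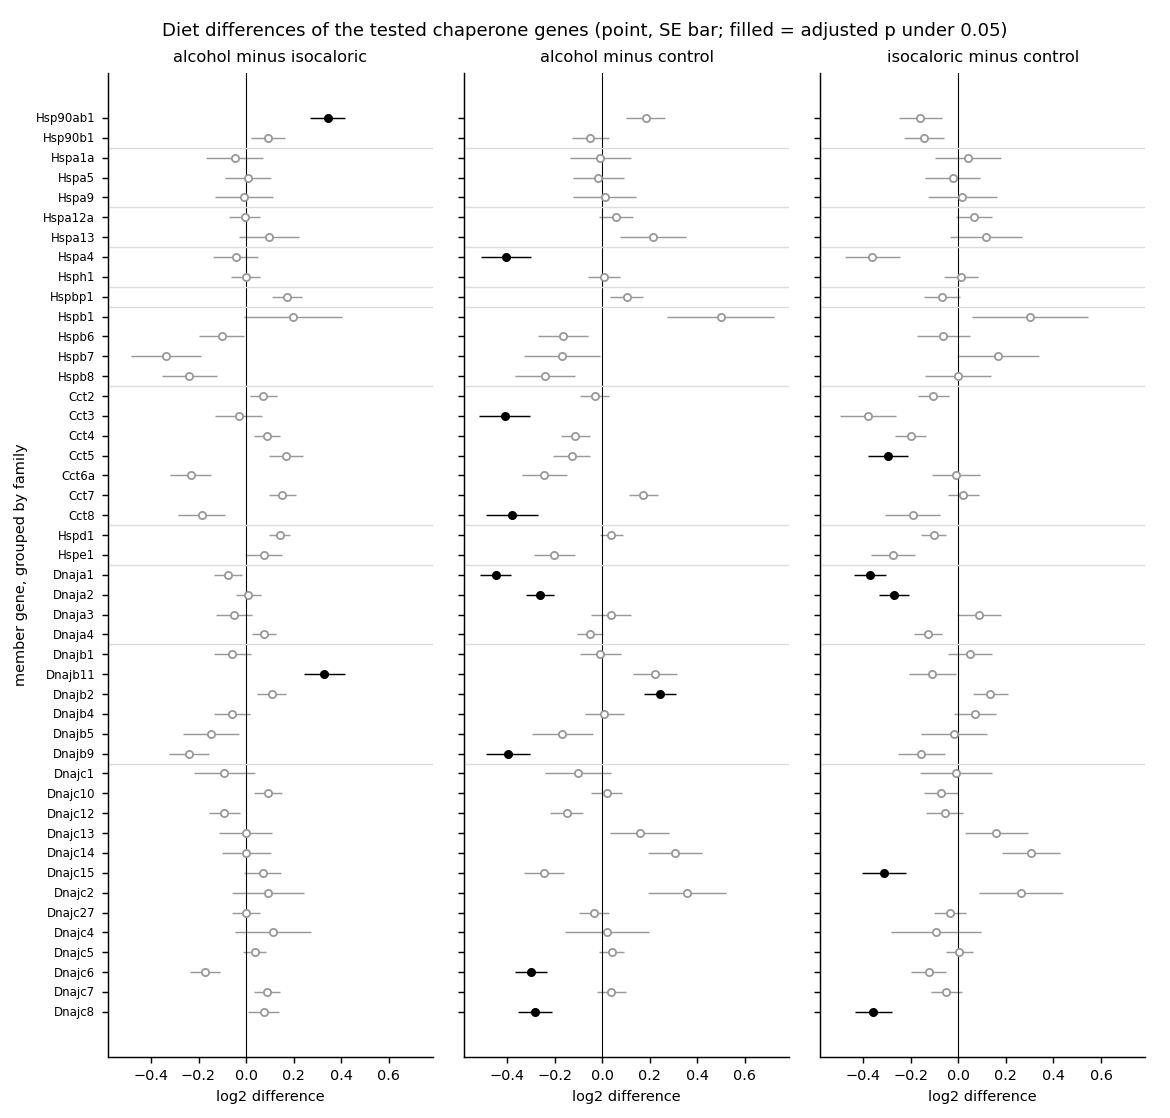
Differences of the 46 tested chaperone genes in log2 units (horizontal axis) for the 3 diet comparisons, grouped by family, with SE bars and filled points where the adjusted p was under 0.05. Filled points number 2, 9 and 5, and those of both control comparisons lie below 0 apart from Dnajb2.

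A second tested probe set existed for 11 of the genes and differed from the first in the control diet. In alcohol against control, 5 of these 11 second probe sets were higher and 0 lower (11.3% and 8.61% over all probe sets), while the first probe sets of the same genes had a median of -0.0074 against 0.34 for the second. In 9 of 11 genes the second difference lay above the first. Isocaloric against control gave 3 higher and 0 lower (4.24% and 2.8% over all), with medians of -0.0098 and 0.14, and the second lay above the first in 10 of 11. Against each other, alcohol and isocaloric gave 0 calls in these second probe sets.

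Dnajc5, the vesicle chaperone, passed the threshold in its second probe set and not in its brighter one. Its brighter probe set ranged from 9.43 to 9.73 over all arrays, and alcohol minus control was 0.040 (adjusted p = 0.631). The second probe set was at 6.68, 6.44, 6.39 and 6.54 in control arrays, against 7.07 to 7.46 in alcohol and 6.98 to 7.44 in isocaloric arrays. The control arrays were the 4 lowest, with a difference of 0.74 from alcohol (adjusted p = 0.000191) and 0.66 from isocaloric (adjusted p = 0.00298).

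Cct6a split too, with 0.69 (adjusted p = 0.00258) for the second and -0.24 (adjusted p = 0.0743) for the first probe set in alcohol against control. Hspa9, the mitochondrial HSP70, gave 0.40 (adjusted p = 0.0165) against 0.0099, Dnajb1, the main inducible partner of HSP70, 0.35 (adjusted p = 0.0166) against -0.0074, and Hsp90ab1 0.34 (adjusted p = 0.00523) against 0.18 (adjusted p = 0.124). So among genes whose second probe set passed, the direction turned for Cct6a and, from a first value near 0, for Dnajb1. For Dnajc5, Hspa9 and Hsp90ab1 the sign was shared and the size differed. The direction also turned for Hspb8 and, from a first value near 0, for Dnajc10, whose second probe sets did not pass. Over all 11 genes the sign was shared in 7. Which transcript part each probe set reads was not analysed here.

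**Figure D4:**
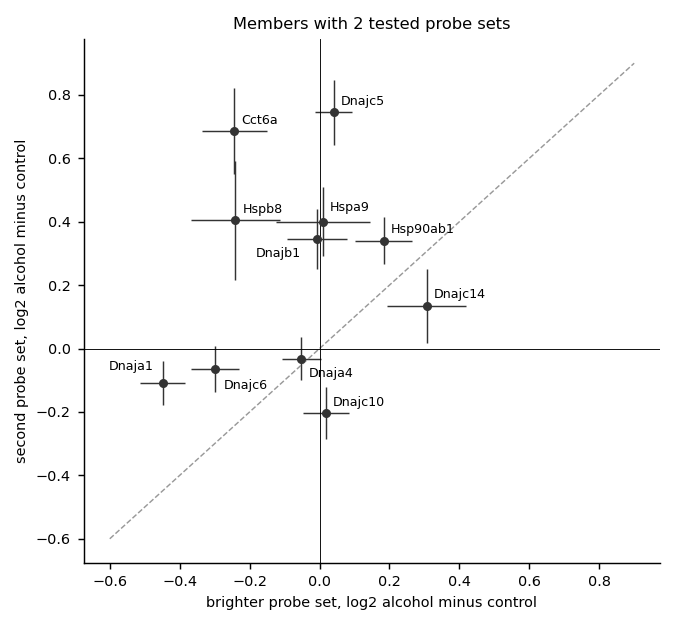
Alcohol minus control in log2 units for the 11 genes with 2 tested probe sets, the brighter on the horizontal and the second on the vertical axis, with SE bars and a dashed line where both are equal. In 9 of 11 genes the point lies above the line, highest for Dnajc5 (0.74) and Cct6a (0.69).

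Of the 7 tested genes with a stress element in the promoter, Dnaja1 alone was called, and it fell in both comparisons with the control diet. Over all probe sets, 8.61% were lower in alcohol and 2.8% in isocaloric than in control. The share of all probe sets called in any of the 10 comparisons was not computed, so this count was not set against the array. In alcohol against control, where 8.61% of all probe sets were lower, Cct4, Hspd1, Hspe1 and Hsph1 differed by -0.11, 0.038, -0.20 and 0.0089 without passing. Hspe1 stood at 10.23 in control naive replicate 2 and at 9.42 to 9.83 on the other arrays. Hspa5, with the ER stress element, was at 9.35 to 9.79 in alcohol, 9.29 to 10.03 in isocaloric and 9.44 to 9.79 in control arrays, so the diets overlapped. The inducible Hspa1a, whose near-identical copy Hspa1b may share its probes, was at 6.02 to 6.69, 6.23 to 6.78 and 6.15 to 6.65.

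Co-chaperones and other helpers outside the set were counted in the same fits. A list of 29 helpers of HSP90, HSP70 and TRiC had 27 measured genes, of which 0 were called between alcohol and isocaloric. Besides co-chaperones it names the heat shock factors Hsf1 and Hsf2, the small heat shock protein Cryab and the TRiC subunit Tcp1, whose symbol the name rule does not take in. Against control, alcohol gave 2 higher, Nudc (0.42) and the heat shock factor Hsf1 (0.30), and 7 lower, against 11.3% higher and 8.61% lower over all probe sets, while 18 did not pass. The lower ones were the HSP90 partners Ptges3 (-0.29), Sugt1 (-0.38) and Chordc1 (-0.41), the HSP70 partner St13 (-0.31), and the prefoldin subunits Pfdn1 (-0.40), Pfdn2 (-0.18) and Pfdn5 (-0.39), which hand actin and tubulin to TRiC. The median of the 27 was -0.016. In the isocaloric diet 3 were lower than in control, Ptges3 (-0.20), Pfdn5 (-0.44) and Bag1 (-0.34), a nucleotide exchange factor of HSP70, against 2.8% over all probe sets, and 24 did not pass. Their median was -0.085.

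Of 23 measured genes of ER folding and the unfolded protein response, 3 were lower in alcohol than in control, the disulfide isomerases Pdia3 (-0.24) and Pdia6 (-0.26) and the lectin chaperone Canx (-0.17), and 0 were higher, against 8.61% and 11.3% over all probe sets. The list had 0 calls in the other diet comparisons. Among 9 measured mitochondrial folding and protease genes, the disaggregase Clpb (0.53) and the mitochondrial HSP90 Trap1 (0.20) were higher in alcohol than in isocaloric and 0 were lower, against 1.47% and 1.59% over all. The protease Yme1l1 (-0.41) was the 1 gene of 9 lower in alcohol than in control, against 8.61% over all.

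Training was compared over the 3 diets, each weighted equally, and 0 of the 46 genes passed, with 0.0105% of all probe sets called. At an unadjusted p under 0.05 there were 2 of 46 (4.35%), against 5.95% of the array. They were Hspa4 at -0.28 (SE 0.086, limma adjusted p = 0.756) and Cct4 at -0.12 (adjusted p = 0.775). Hspa4 was at 7.86 to 8.62 in trained arrays (median 8.12) and at 8.07 to 8.80 in naive arrays (median 8.47), which overlapped. Choroid plexus markers leaned to the trained arrays, with a median difference of 0.65 over 6 tested markers and 1.25 in the control diet, and 0 were called. Their part in the training differences was not tested further.

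Stress-inducible and ER chaperones showed no call with training. Hspb1 was at 5.06 to 6.49 in trained (median 6.41) and 5.32 to 6.22 in naive arrays (median 5.77). Its difference of 0.33 had an SE of 0.19 (adjusted p = 0.881), and its 2 control trained arrays were at 6.48 and 5.06. Hsp90b1 and Hspa5 each differed by 0.13, with 9 of 10 trained arrays above the naive mean of their own diet and adjusted p of 0.832 and 0.914. Hspa1a and Dnajb1 differed by 0.13 and 0.11 (adjusted p = 0.933 and 0.910). The 95% interval of Hspa1a ran from -0.092 to 0.35. Of the helper, ER and mitochondrial lists, 0 genes were called with training.

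**Figure D5:**
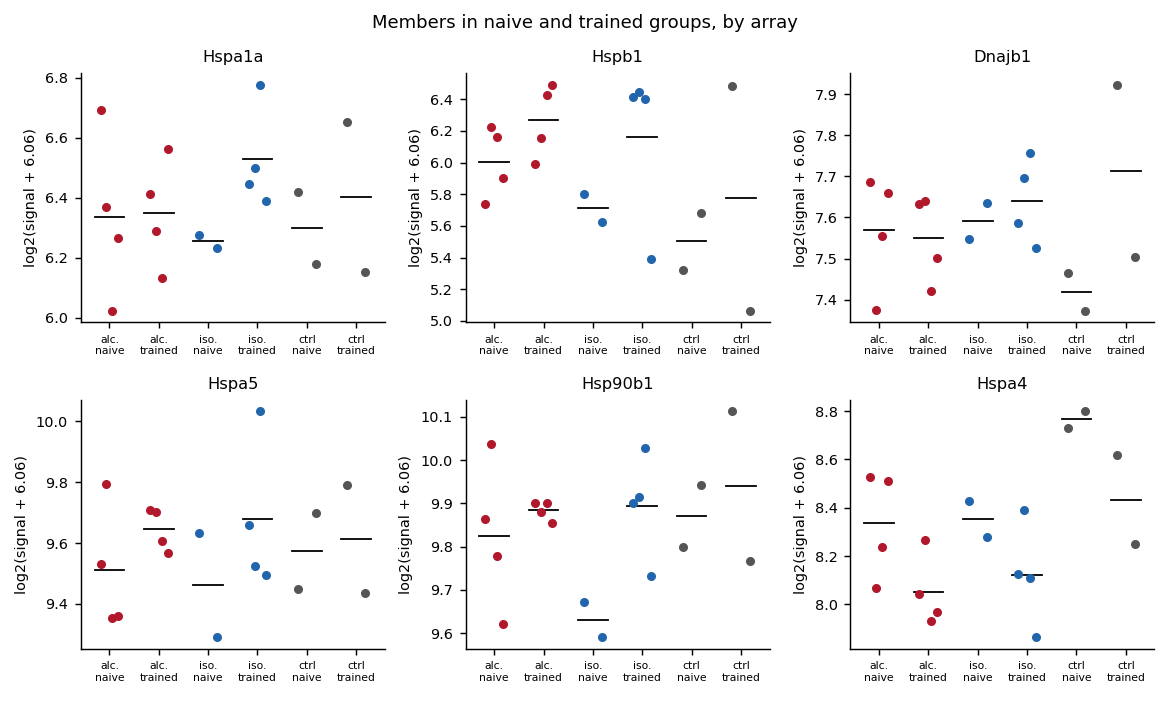
Levels of Hspa1a, Hspb1, Dnajb1, Hspa5, Hsp90b1 and Hspa4 as log2(signal + 6.06) in naive and trained groups of the 3 diets, 1 point per array and a line at each group mean, with a separate vertical scale per gene. Over the 3 diets, naive and trained arrays overlap for all 6 genes, and the control trained arrays of Hspb1 lie apart at 6.48 and 5.06.

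Within single diets, 0 chaperone genes passed for training. In the alcohol diet the array called 0% adjusted and 8.59% unadjusted, and 4 of the 46 genes (8.70%) had an unadjusted p under 0.05, Cct4 (-0.20), Dnajb9 (-0.29), Hspa4 (-0.28) and Cct2 (0.16). In the isocaloric diet these were 0%, 7.12% and 2 genes (4.35%), Hsp90b1 (0.26) and Cct6a (-0.30). In the control diet, with 2 against 2 arrays, they were 0.0315%, 10.9% and 6 genes (13.0%), among them Cct6a (0.43) and Hsp90ab1 (-0.36). Leaving out control naive replicate 1 leaves 1 naive array there, and its count is not read as a result.

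The difference between alcohol and isocaloric was also taken within each training state, where 0 of the 46 genes passed. Among naive arrays, 0.0735% of all probe sets were called, and 12.4% had an unadjusted p under 0.05, against 9 chaperone genes (19.6%). Hsp90ab1 differed by 0.39 (adjusted p = 0.20) and Dnajb11 by 0.28 (adjusted p = 0.391), and without alcohol naive replicate 4 there was 1 call. Among trained arrays, 0.399% were called and 14.7% had an unadjusted p under 0.05, against 5 genes (10.9%). There Hsp90ab1 differed by 0.30 (adjusted p = 0.169) and Dnajb11 by 0.38 (adjusted p = 0.12). The training differences of both diets were tested against each other in an interaction, where 0% of the array was called and 4.21% had an unadjusted p under 0.05, against 3 genes (6.52%), Cct4 (-0.32), Dnajc6 (0.32) and Cct6a (0.44), each with an adjusted p of 1.00.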

How the data were processed

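Each deposited value is the linear intensity of 1 probe set on 1 array. The submitters' processing notes name MAS5 for 2 of 18 samples. The sources used here do not give the algorithm of the other 16. The trimmed mean was close to 150 on every array. Of 15923 probe sets, 57 were Affymetrix controls. By the platform annotation 12789 carried 1 symbol, 312 several and 2822 none. All 60 chaperone genes matched RefSeq by gene ID.

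Values were taken as log2(value + 6.06). Probe sets with a mean under 5.78, the 40th percentile, were left out, and 9520 were tested in limma 3.58.1 (R 4.3.3) with lmFit on 6 group means, using all 18 arrays, and a trended eBayes. Tests were two-sided, with Benjamini-Hochberg adjustment over all probe sets of a comparison and a threshold of 0.05. Averaged diet comparisons weight trained and naive equally. A call refers to the brightest probe set of a gene. Arrays limit the precision by their number. The fit was checked on data simulated with normal noise for alcohol against isocaloric. Of changes of 0.3, 0.6 and 1.0 log2 units, 34.3%, 95.5% and 98.5% were recovered, with 14 false calls over 9520 probe sets. Changes near 0.3 were thus often missed there, and a gene that did not pass may still differ. Tables and plots used Python 3.11.15, pandas 2.3.3, numpy 2.4.6 and matplotlib 3.10.9.

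The genes and lists were chosen with earlier results of these data known. Any member could be named; values by array or group are given for members past the threshold in any comparison, for the 5 largest differences of each averaged comparison and for a fixed set of well-known chaperones. Lists are described by counts and medians, and the genes of a list that pass the threshold are named. Alternatives were the added constant, the filter, quantile normalization, median centring, array weights, fitting only the groups compared, a replicate block, the Gapdh and actin ratios as covariates, leaving out arrays with MAS5 named or high in Ttr, the mean of a gene's probe sets, and leaving out each array. Leaving out the 4 arrays highest in Ttr was added after seeing the data. Promoters came from RefSeq GRCr8.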

Additional observations from a re-analysis of the deposited data

Results flagged for a closer look

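In each group of 4 arrays, the gap between an extreme array and its neighbour was set against the range of the group (Dixon's 95% value of 0.829), over 28 named chaperone genes and 84 groups. Chance sets about 5% of groups apart, and 2 were. Hspb1 in isocaloric trained replicate 4 stood at 5.39, against 6.40 to 6.45 in the other 3. Hsph1 in alcohol trained replicate 4, an array high in Ttr and lowest of its group for Cct3 and Cct8 too, stood at 9.37, against 9.62 to 9.66.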

How the results depend on the processing

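Over 408 repeats of the 16 calls described, 307 passed again, 101 did not and 0 turned direction. Over 2620 repeats of 96 values that did not pass, 34 did, and the sign of the difference changed in 209. For alcohol against isocaloric the 2 calls became 1 with no filter, 9 with array weights (6 higher, 3 lower), 0 with the Gapdh ratio, 0 without the 6 arrays high in Ttr and 0 without the 4 highest. For alcohol against control the 9 became 3 with the actin ratio, 15 without the 2 arrays with MAS5 named, 2 without the 6 arrays high in Ttr and 5 without the 4 highest. For isocaloric against control the 5 became 3 with no filter, 3 with quantile normalization, 8 with median centring, 2 with only the groups compared, 0 with the actin ratio, 10 without the 2 arrays with MAS5 named, and 0 without the 6 or the 4 arrays high in Ttr. Training in the control diet had 1 call (Dnajc15) without the 2 arrays with MAS5 named, and alcohol against isocaloric in naive arrays 6 with array weights. The cause of each move was not tested.

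Leaving out 1 array gave 0 to 3 calls for alcohol against isocaloric, 3 to 15 for alcohol against control, 0 to 11 for isocaloric against control, 0 to 6 for training in the control diet and 0 to 1 for alcohol against isocaloric in naive arrays, and 0 in the other 5 comparisons. Where a group then held 1 array, that array was assumed to vary like the other groups. The share of all probe sets called was not set beside these counts, so they do not show a trait of the chaperone genes.

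Same-numbered arrays of different groups did not deviate together (r of -0.23 to 0.13, 4 of 36 pairs over 0.1). These values show no pairing by number but cannot exclude one, since each group held few arrays. With a replicate block the calls were 1 for alcohol against isocaloric, 9 for alcohol against control and 3 for isocaloric against control.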
